A study of Mus musculus with 4 samples.

Results

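Of the 52636 genes counted in cells sorted from control and Eya1cKO mouse kidneys, 45 encode proteins that hold epithelial cells together, line them or set their apical side, or mark the mesenchymal state from which kidney epithelium forms. The 45 genes were taken by name: 6 cadherins, the surface glycoprotein gene *Epcam* with 4 keratins, 15 claudins, 4 other tight junction genes, 7 polarity genes, 2 epithelial transcription factors and 6 mesenchymal genes. All 45 were found in the count tables, *Pals1* under its other symbol *Mpp5*. The rule itself used names alone, but the 45 genes were chosen with earlier results of these data known.

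In the embryonic kidney, nephron progenitors are mesenchymal cells that condense around the branching ureteric epithelium and then turn into epithelium, a mesenchyme-to-epithelium transition that yields the renal vesicle and later the podocytes and tubules. During that change cells exchange one set of cadherins for another, assemble tight junctions from claudins, occludin and their cytoplasmic partners, lay down keratin filaments, and sort membrane proteins into apical and basolateral faces through the Crumbs, Par and Scribble groups of polarity proteins. Factors of the Zeb, Snai and Twist families are known to hold cells in a mesenchymal state, and Zeb and Snai proteins bind E-box sequences in promoters of epithelial genes.

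The study sorted cells that had been marked with the red fluorescent protein tdTomato by a tamoxifen-inducible Cre recombinase (CreER) placed at the *Eya1* locus, 48 h after tamoxifen was begun, at E12.5 to E12.75. Control embryos were Eya1CreER;tdTomato and Eya1cKO embryos were Eya1CreER;Eya1fl/fl;tdTomato, on a mixed C57BL/6J and 129/Sv background. The controls thus also carried the CreER allele and received the drug, and recombination was limited to cells in which the *Eya1* locus was active when tamoxifen was present. Each of the 2 Control and 2 Eya1cKO libraries came from 5000 cells. Cell suspensions had been combined before the sort and portions were sorted at the same time, so P-values measure the spread between these libraries and may not cover that between embryos.

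Reads counted on genes numbered 35411905 and 37999342 in the Control libraries and 22239293 and 17457452 in the Eya1cKO libraries. The targeted gene, *Eya1*, fell from 6612 (Control 1) and 6420 (Control 2) reads to 377 (Eya1cKO 1) and 219 (Eya1cKO 2). Reads on no gene made up 12.9% to 13.9% of the records in Control and 20.9% to 22.7% in Eya1cKO. Levels below are in CPM, counts scaled to a common library size with edgeR's TMM factors, on which scale 3 reads amount to 0.0801 to 0.171 CPM. Those amounts reflect counting error alone. PCR copies of a molecule are not separate observations, so the error may be larger. Means are given for Control and then Eya1cKO, ± SD over n = 2 libraries, log2 fold changes are Eya1cKO over Control with their standard error (SE), and P-values from edgeR's quasi-likelihood test were adjusted by the Benjamini-Hochberg method over the 19041 genes that passed the filter on low counts. In these bulk samples, fewer cells of a type and less RNA per cell cannot be told apart.

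Promoter sequences were taken for 32 of the 45 genes from the RefSeq table for GRCm38.p6. They were 44 promoters of 300 bases, from 250 before to 50 after a start. They were read for the E-box CAGGTG and its reverse complement CACCTG, which Zeb and Snai factors are known to bind, and for AACCGG or CCGGTT, the core bound by Grainyhead factors such as *Grhl2*. An occurrence of one motif cannot overlap an occurrence of the other. Of the 44 promoters, 19 held the E-box (43.2%), beside 6640 of all 32851 promoters of that length (20.2%). The Grainyhead core was in 4 of the 44 (9.09%), beside 6.83% of all promoters. By gene, the E-box was present for 4 of 4 genes of the *Epcam* and keratin group, 3 of 4 tight junction adaptors, 3 of 5 polarity genes, 4 of 13 claudins, 1 of 1 epithelial transcription factor, 0 of 1 cadherin and 1 of 4 mesenchymal genes. Such a match describes letters in a window and is not a binding site. *Cdh1*, *Cdh2*, *Cdh4*, *Cdh11*, *Cdh16*, *Cldn8*, *Cldn9*, *Grhl2*, *Krt19*, *Llgl2*, *Pals1*, *Snai2* and *Zeb1* had no promoter here.

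Stretches of 5 of these promoters, each from 200 bases before to 25 after the start and read 5′ to 3′ on the strand of the gene, show how the motif was spread. *Crb3* was chosen for the 3 E-boxes in its stretch, *Cldn4* and *Epcam* because they are epithelial surface genes with 2 each, *Cldn6* as a gene that rose and has 1 in its stretch, and *Cldn5* as the claudin of the highest level per kb of exon, which has none. The full promoters of 300 bases hold 4 for *Crb3* and 2 for *Cldn6*. Capitals mark CAGGTG or CACCTG. The positions on GRCm38.p6 are chr17:57062001-57062225 on the plus strand for *Crb3*, chr5:134946910-134947134 on the minus strand for *Cldn4*, chr17:87635779-87636003 on the plus strand for *Epcam*, chr17:23679165-23679389 on the plus strand for *Cldn6* and chr16:18776647-18776871 on the plus strand for *Cldn5*. The *Crb3* start lies inside the span that GENCODE M21 gives the gene, chr17:57059105-57065918.
*Crb3*: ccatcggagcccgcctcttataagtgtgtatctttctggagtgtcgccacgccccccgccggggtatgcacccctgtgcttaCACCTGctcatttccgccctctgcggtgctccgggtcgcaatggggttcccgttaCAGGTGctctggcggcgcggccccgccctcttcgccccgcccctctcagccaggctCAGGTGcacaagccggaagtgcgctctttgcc
*Cldn4*: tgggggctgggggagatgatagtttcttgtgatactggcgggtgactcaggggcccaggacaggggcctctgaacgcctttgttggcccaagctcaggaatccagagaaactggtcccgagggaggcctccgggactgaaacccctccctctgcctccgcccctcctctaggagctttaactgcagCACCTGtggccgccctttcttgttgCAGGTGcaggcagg
*Epcam*: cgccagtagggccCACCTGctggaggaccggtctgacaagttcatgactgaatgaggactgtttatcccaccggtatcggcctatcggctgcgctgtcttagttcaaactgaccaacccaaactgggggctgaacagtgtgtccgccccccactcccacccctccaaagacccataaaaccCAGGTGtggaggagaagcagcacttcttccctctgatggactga
*Cldn6*: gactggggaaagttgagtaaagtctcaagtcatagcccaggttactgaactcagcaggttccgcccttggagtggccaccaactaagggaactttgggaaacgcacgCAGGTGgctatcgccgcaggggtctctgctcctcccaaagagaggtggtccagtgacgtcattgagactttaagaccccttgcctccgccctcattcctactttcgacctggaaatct
*Cldn5*: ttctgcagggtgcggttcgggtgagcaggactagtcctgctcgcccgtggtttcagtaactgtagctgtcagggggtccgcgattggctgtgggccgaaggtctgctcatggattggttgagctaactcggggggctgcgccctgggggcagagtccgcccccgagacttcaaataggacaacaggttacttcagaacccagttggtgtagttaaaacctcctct

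Between the genotypes, 10 of the genes changed. The cadherins *Cdh2* and *Cdh11* and the claudin *Cldn3* fell, and the cadherin *Cdh16*, the claudins *Cldn2*, *Cldn5* and *Cldn6*, the Crumbs gene *Crb2*, the intermediate filament gene *Vim* and the transcription factor gene *Zeb2* rose. Of the 44 that could be tested, 3 were lower and 7 higher, or 22.7% in all, beside 9.42% of all 19041 genes tested in either direction, 4.39% lower and 5.03% higher. At an unadjusted P under 0.05 there were 20 of the 44, beside 28.9% of all genes tested. With DESeq2's Wald test, 4 were lower and 9 higher, beside 6.57% lower and 9.18% higher of all genes with an adjusted P in that test. The median log2 fold change was 0.06 over the 44 and 0.02 over all genes tested, and 27 of the 44 had a positive sign. In 11 both Eya1cKO libraries lay below both Control libraries, in 19 above them, and in 14 the genotypes overlapped. Among all genes tested the genotypes were apart in 55.3%, with Eya1cKO lower in 30.0% and higher in 25.3%. Each of the 10 calls was lost when either Control library was left out, which leaves a single Control library in the fit.

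**Figure D1:**
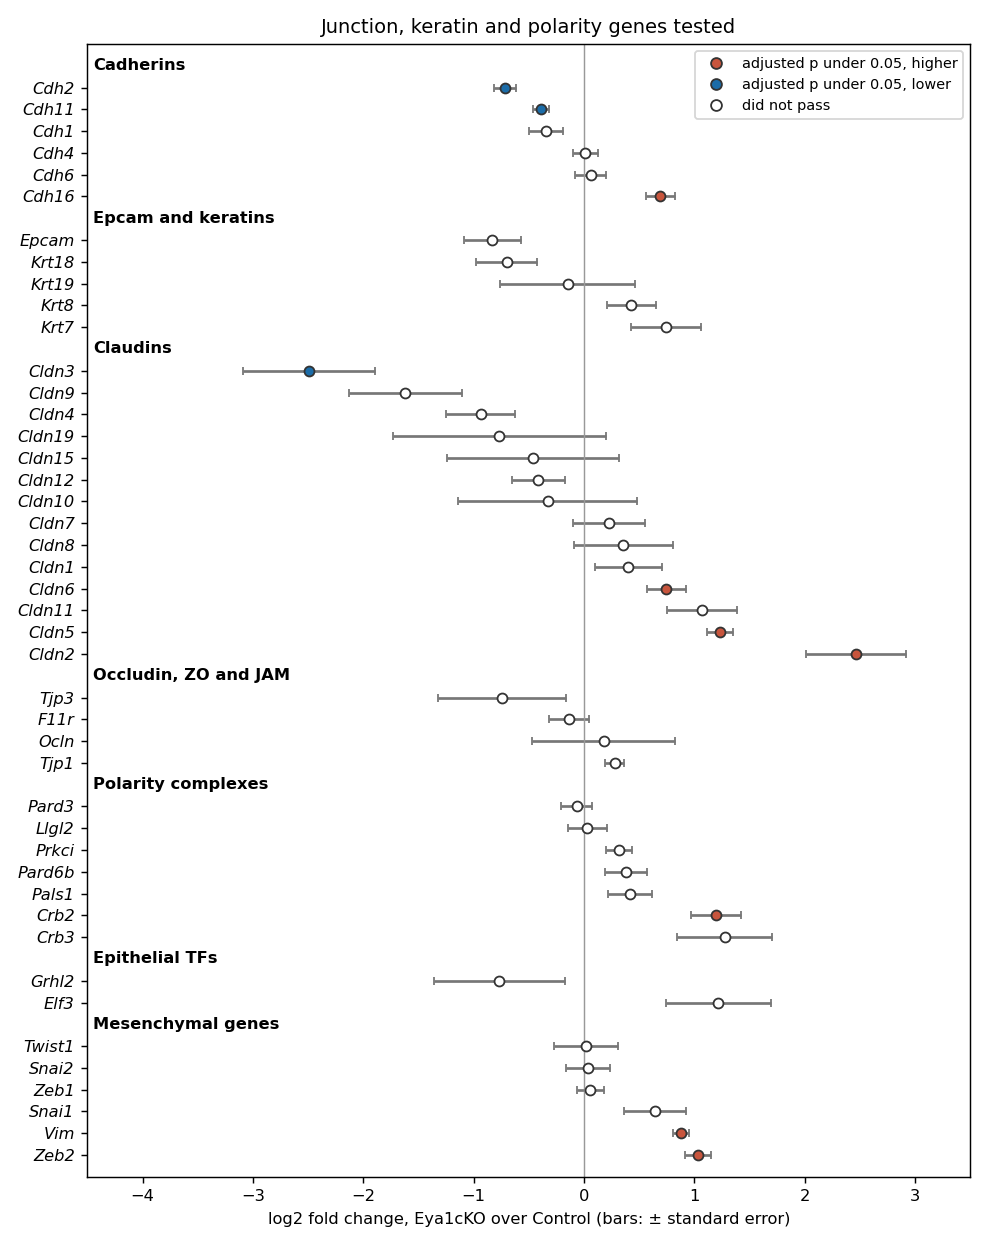
Log2 fold change of Eya1cKO over Control (horizontal axis) for each of the 44 genes tested, grouped by role, with bars of 1 SE and colour for the outcome of edgeR's test. The 10 genes that passed run from *Cldn3* at -2.49 to *Cldn2* at 2.46, and genes on both sides of 0 occur among the cadherins and claudins.

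**Figure D2:**
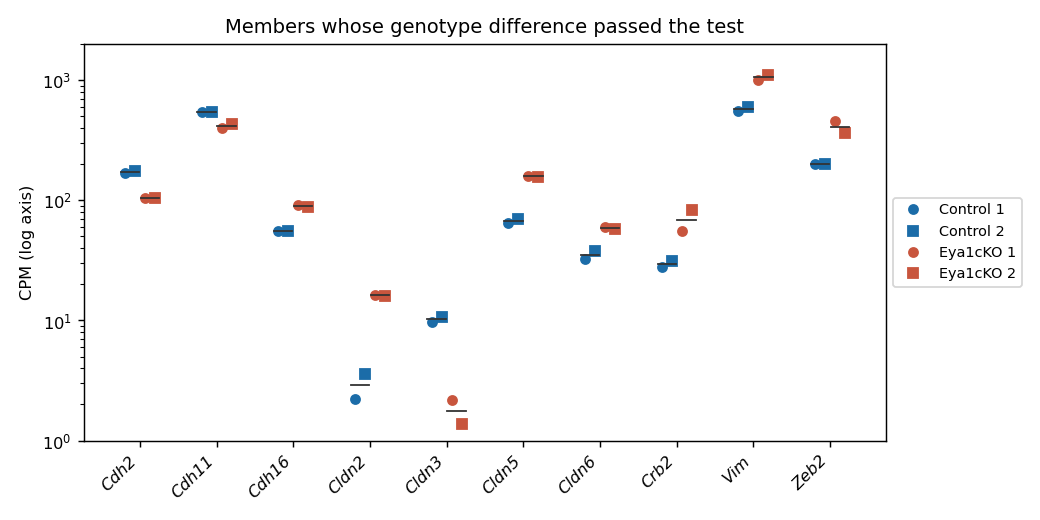
CPM on a log axis in each library for the 10 genes whose genotype difference passed the test, with a line at the mean of each genotype. In each gene both Eya1cKO libraries lie on one side of both Control libraries.

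Among the cadherins, the calcium-dependent adhesion molecules of adherens junctions, *Cdh2* and *Cdh11* fell, *Cdh16* rose, and *Cdh1*, *Cdh4* and *Cdh6* did not pass. Of the 6, 2 were thus lower and 1 higher, and the summed level of the 6 went from 1054 and 1076 CPM in Control 1 and 2 to 887 and 893 CPM in Eya1cKO 1 and 2. *Cdh2*, which encodes N-cadherin and lies on chr18:16588877-16809246, had 169 and 177 CPM in Control 1 and 2 and 105 and 105 CPM in Eya1cKO 1 and 2. The Eya1cKO libraries of *Cdh2* were nearly the same and well below both Controls, by 1.65-fold (means 173 ± 5.45 and 105 ± 0.287 CPM), with a log2 fold change of -0.72 (SE 0.10, edgeR-adjusted P = 0.0085). *Cdh11*, at chr8:102632095-102785642, encodes the mesenchymal OB-cadherin. Its levels were 543 and 538 CPM in Control and 397 and 430.2 CPM in Eya1cKO. The fall in *Cdh11* was small but exceeded the spread between libraries (means 540.4 ± 3.05 and 413 ± 23.7 CPM, log2 fold change -0.39, SE 0.07, edgeR-adjusted P = 0.020).

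*Cdh16*, at chr8:104601911-104624396, encodes the kidney-specific Ksp-cadherin of tubular epithelium. It was at 55.2 and 55.9 CPM in Control and at 91.6 and 87.4 CPM in Eya1cKO. Both pairs of libraries were tight, and the rise was 1.61-fold (means 55.5 ± 0.485 and 89.5 ± 2.91 CPM, log2 fold change 0.69, SE 0.13, edgeR-adjusted P = 0.023). That call was lost without the low-count filter. Markers of tubule rose beside *Cdh16* in 5 of the 6 genes tested, and the sum of all 7 genes of the list went from 112 to 117 CPM in Control to 389 to 426 CPM in Eya1cKO, and none of the list was at the limit of detection in all libraries. Their part in the result was not tested.

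The other cadherins did not pass. *Cdh1*, the E-cadherin of epithelia, was at 74.9 and 88.7 CPM in Control and 61.2 and 68.2 CPM in Eya1cKO. The genotypes were apart for *Cdh1* without reaching the threshold (log2 fold change -0.35, SE 0.16, edgeR-adjusted P = 0.19). *Cdh4*, or R-cadherin, had 148, 150.1, 162 and 137 CPM in Control 1, Control 2, Eya1cKO 1 and Eya1cKO 2, and its genotypes overlapped. *Cdh6*, the K-cadherin of early nephron epithelium, had 64.6, 66.8, 70.9 and 65.4 CPM in the same order and overlapped as well.

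Per kilobase of exon, where levels can be compared between genes, *Cdh11* was the highest of these 6 cadherins in all 4 libraries, at a mean of 60.7 CPM per kb in Control and 46.4 in Eya1cKO. The share of *Cdh2* in the summed cadherin level per kb was 14.9% and 15.1% in Control and 10.4% and 10.4% in Eya1cKO. *Cdh16* made up 10.4% and 10.2% of that sum in Control and 19.3% and 18.4% in Eya1cKO. The ratio of *Cdh1* to *Cdh2* per kb was 0.782 and 0.886 in Control and 1.03 and 1.15 in Eya1cKO, so that *Cdh1* lay below *Cdh2* in both Control libraries and above it in both Eya1cKO libraries. These shares and ratios are given as a description and were not tested.

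**Figure D3:**
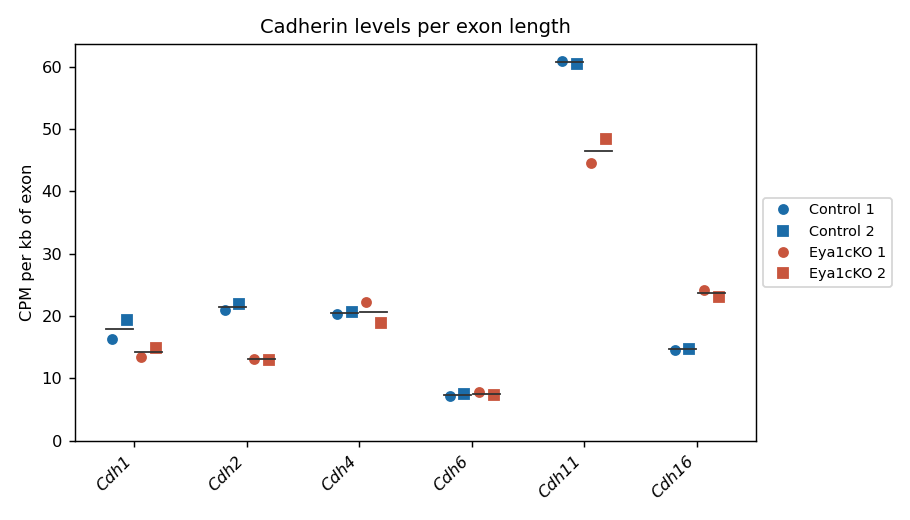
Level of each of the 6 cadherins in CPM per kb of exon (vertical axis, from 0) in each library. *Cdh11* is the highest of the 6 in each library, and *Cdh2* and *Cdh16* change their order between the genotypes, from 21.4 and 14.6 CPM per kb in Control to 13.02 and 23.6 in Eya1cKO.

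None of the 5 genes for *Epcam* and the keratins passed the test, although the unadjusted P was under 0.05 for 3. DESeq2's Wald test also called 0. The summed level was 133 and 137 CPM in Control and 121 and 106 CPM in Eya1cKO. *Epcam*, a surface glycoprotein of epithelial cells, had 52.5 and 54.5 CPM in Control and 38.1 and 20.1 CPM in Eya1cKO. The Eya1cKO libraries of *Epcam* were below both Controls but lay far from each other (log2 fold change -0.83, SE 0.26, edgeR-adjusted P = 0.096).

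Keratins 8 and 18 pair to form the filaments of simple epithelia, and here their genes had opposite signs. *Krt8* was at 23.4 and 27.8 CPM in Control and 36.9 and 31.6 CPM in Eya1cKO (log2 fold change 0.43, SE 0.23, edgeR-adjusted P = 0.26). *Krt18* was at 38.2 and 36.9 CPM in Control and 17.2 and 30.4 CPM in Eya1cKO (log2 fold change -0.70, SE 0.28, edgeR-adjusted P = 0.15). Per kb of exon the ratio of *Krt8* to *Krt18* was 0.45 and 0.553 in Control and 1.58 and 0.763 in Eya1cKO, with the Eya1cKO libraries far apart. *Krt7*, which is expressed in ductal epithelium, had 14.4 and 12.7 CPM in Control and 26.4 and 18.0 CPM in Eya1cKO (edgeR-adjusted P = 0.17). *Krt19*, another keratin of ductal epithelium, had a mean of 4.6 CPM in Control and 4.35 CPM in Eya1cKO, and its genotypes overlapped. Of 8 markers of ureteric epithelium, *Ret* and *Calb1* fell and the other 6 did not pass. Of these 6, *Wnt11*, *Wnt9b* and *Gata3* lay lower in both Eya1cKO libraries than in both Controls. *Wnt7b* lay higher in both Eya1cKO libraries (10.6 and 6.1 CPM) than in Control (3.98 and 5.53 CPM), and *Tfap2b* and *Emx2* overlapped between genotypes. DESeq2's Wald test called 3 of the 8 lower and 0 higher. The sum of the 8 was 213 to 216 CPM in Control and 125 to 132 CPM in Eya1cKO, with none at the limit of detection in all libraries. Whether they have a part in the values of *Epcam* and *Krt18* was not tested.

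Claudins are the membrane-spanning proteins that form the strands of tight junctions and set which ions and solutes pass between cells. Of the 15 claudins, 14 could be tested. *Cldn3* fell, *Cldn2*, *Cldn5* and *Cldn6* rose, and 7 had an unadjusted P under 0.05. The summed level of the 15 claudins was 240 and 252 CPM in Control and 363 and 364 CPM in Eya1cKO. With DESeq2's Wald test, *Cldn9* was added to the lower and *Cldn11* to the higher claudins.

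*Cldn5*, known for its place in the junctions of endothelium, lies at chr16:18776847-18778262. It was at 64.4 and 70.5 CPM in Control and 159.5 and 157 CPM in Eya1cKO. The levels within a genotype were close and the rise was 2.35-fold (means 67.4 ± 4.30 and 158 ± 1.49 CPM, log2 fold change 1.23, SE 0.11, edgeR-adjusted P = 0.0019). All 8 endothelial markers also rose, from a sum of 618 to 629 CPM to 1068 to 1127 CPM, and podocyte markers, which include no claudin, rose in 7 of 7 from 514 to 523 CPM to 2390 to 2392 CPM. Neither list had a gene at the limit of detection in all libraries, and their part in the rise of *Cldn5* was not tested.

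*Cldn2*, a cation-permeable claudin of proximal tubule at chrX:139800828-139811386, had 2.23 and 3.58 CPM in Control and 16.2 and 16.1 CPM in Eya1cKO. This was the largest rise among the 44 genes tested, 5.51-fold, with the Eya1cKO libraries nearly equal (means 2.91 ± 0.951 and 16.2 ± 0.117 CPM, log2 fold change 2.46, SE 0.46, edgeR-adjusted P = 0.021). Of the tubule markers given beside *Cdh16*, 5 of 6 rose along with *Cldn2*. *Cldn6*, a claudin of embryonic epithelia at chr17:23679249-23682446, had 32.6 and 38.2 CPM in Control and 60.5 and 58.3 CPM in Eya1cKO. The rise in *Cldn6* was 1.68-fold (means 35.4 ± 4.00 and 59.4 ± 1.55 CPM, log2 fold change 0.75, SE 0.17, edgeR-adjusted P = 0.043), and its call was lost without the low-count filter and when the Control counts were thinned to the depth of Eya1cKO.

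*Cldn3*, a barrier-forming claudin at chr5:134986214-134987472, had 337 reads in Control 1 and 403 in Control 2, against 49 in Eya1cKO 1 and 24 in Eya1cKO 2. These were 9.65 and 10.8 CPM in Control and 2.17 and 1.37 CPM in Eya1cKO. The fall was the largest among the 44 genes tested, 5.61-fold (means 10.2 ± 0.786 and 1.77 ± 0.566 CPM, log2 fold change -2.49, SE 0.60, edgeR-adjusted P = 0.046), and the call was lost under the same changes as that of *Cldn6*. Its neighbour *Cldn4*, at chr5:134945119-134946934, had 21.5 and 20.6 CPM in Control and 10.1 and 12.1 CPM in Eya1cKO. *Cldn4*, another barrier-forming claudin, was apart in the same direction without passing (log2 fold change -0.94, SE 0.31, edgeR-adjusted P = 0.10). The 8 ureteric markers, of which 2 fell and 6 did not pass, are given beside the keratins, and their part in the values of *Cldn3* and *Cldn4* was not tested.

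*Cldn9* sits next to *Cldn6* on the opposite strand, at chr17:23682584-23684026. Its levels were 10.02 and 10.6 CPM in Control and 3.85 and 2.74 CPM in Eya1cKO, the opposite sign to its neighbour (log2 fold change -1.62, SE 0.51, edgeR-adjusted P = 0.097). *Cldn11*, a claudin known from oligodendrocytes and Sertoli cells, had 12.1 and 16.5 CPM in Control and 24.8 and 36.8 CPM in Eya1cKO. The genotypes were apart for *Cldn11*, with Eya1cKO above Control (log2 fold change 1.07, SE 0.31, edgeR-adjusted P = 0.083).

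*Cldn1*, a widely expressed barrier claudin, had 16.2, 14.6, 23.1 and 16.6 CPM in Control 1, Control 2, Eya1cKO 1 and Eya1cKO 2, and *Cldn12* had 32.4, 30.2, 20.6 and 27.1 CPM in the same order. Both were apart by genotype, *Cldn1* with Eya1cKO above and *Cldn12* with Eya1cKO below, and their edgeR-adjusted P-values were 0.43 and 0.30. *Cldn7*, found in collecting duct, had 18.5, 20.6, 28.7 and 15.6 CPM, with the Control values between those of the Eya1cKO libraries. *Cldn8*, *Cldn10*, *Cldn15* and *Cldn19* were low, with means from 2.24 to 6.77 CPM in Control and from 1.64 to 8.53 CPM in Eya1cKO, and did not pass. *Cldn19*, which with *Cldn16* makes the paracellular magnesium pathway of the thick ascending limb, ranged from 3 to 86 reads between the Eya1cKO libraries. *Cldn16* had 9 and 10 reads in Control and 0 in both Eya1cKO libraries, too few to be tested. Its mean Control level was 1.53-fold the level that 3 reads amount to in the shallower Eya1cKO library. That figure leaves out the error of the Control counts and is not a lower bound.

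Per kb of exon, *Cldn5* had the highest level of the 15 claudins in each library, and its share of their sum was 36.0% and 36.5% in Control and 54.8% and 54.2% in Eya1cKO. *Cldn6* was next in each library, with shares of 14.95% and 16.3% in Control and 17.1% and 16.5% in Eya1cKO. Both Eya1cKO shares of *Cldn6* lay above both Control shares, by little. *Cldn4* took 9.35% and 8.35% in Control and 2.7% and 3.26% in Eya1cKO. The share of *Cldn3* was 6.06% and 6.28% in Control and 0.837% and 0.53% in Eya1cKO, and that of *Cldn2* was 0.531% and 0.79% in Control and 2.38% and 2.36% in Eya1cKO. A share depends on the levels of the other claudins as well.

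**Figure D4:**
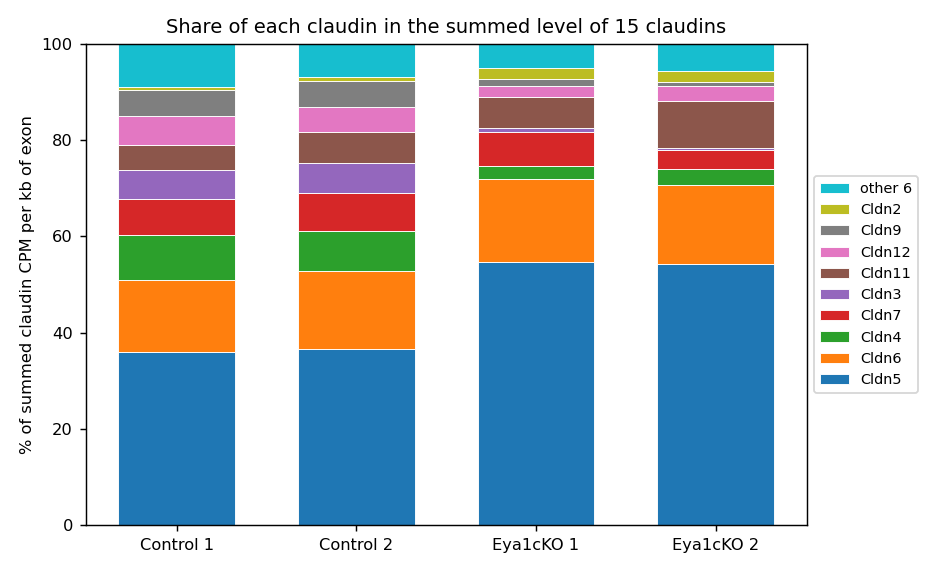
Share of each claudin in the summed level of 15 claudins, as a percent of CPM per kb of exon (vertical axis), in each of the 4 libraries. *Cldn5* takes 36.0% and 36.5% in the Control libraries and 54.8% and 54.2% in the Eya1cKO libraries, and the bands of *Cldn3* and *Cldn4* are narrower in Eya1cKO.

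Among the tight junction adaptors and partner proteins, 0 of 4 passed in edgeR, 1 had an unadjusted P under 0.05, and DESeq2's Wald test called *Tjp1* higher. *Tjp1* encodes ZO-1, the scaffold that joins junction proteins to actin. Its levels were 339.9 and 303 CPM in Control and 385 and 393 CPM in Eya1cKO, apart but by little (log2 fold change 0.28, SE 0.08, edgeR-adjusted P = 0.089). *F11r*, the junctional adhesion molecule JAM-A, had 64.8, 62.2, 49.6 and 67.4 CPM in Control 1, Control 2, Eya1cKO 1 and Eya1cKO 2. *Ocln*, which encodes occludin, was counted 373 times in Control 1, 328 in Control 2, 399 in Eya1cKO 1 and 43 in Eya1cKO 2. As levels these were 10.7, 8.76, 17.7 and 2.45 CPM, so that 1 Eya1cKO library lay above both Controls and the other below them. The log2 fold change of *Ocln* was 0.18 with an SE of 0.65, was -1.99 without Eya1cKO 1 and was 0.85 without Eya1cKO 2, both past the threshold. *Tjp3*, or ZO-3, was at a mean of 8.5 CPM in Control and 5.42 CPM in Eya1cKO and did not pass.

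Of the 7 polarity genes, *Crb2* alone passed and was higher, 3 had an unadjusted P under 0.05, and the median log2 fold change was 0.38. *Crb2* encodes a Crumbs protein of apical membranes that is needed in podocytes, and lies at chr2:37776249-37799103. It was at 28.0 and 31.2 CPM in Control and at 55.8 and 82.4 CPM in Eya1cKO. Both Eya1cKO libraries exceeded the Controls while differing from each other (means 29.6 ± 2.23 and 69.1 ± 18.8 CPM, log2 fold change 1.20, SE 0.23, edgeR-adjusted P = 0.023), and the call was lost without the low-count filter and with the Control counts thinned. The 7 podocyte markers given beside *Cldn5* rose along with *Crb2*, and their part was not tested.

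*Crb3*, the Crumbs protein of most epithelia, had 5.58 and 4.59 CPM in Control and 11.5 and 13.2 CPM in Eya1cKO. Both Eya1cKO libraries of *Crb3*, whose promoter stretch is given above, lay over the Controls without passing (log2 fold change 1.27, SE 0.43, edgeR-adjusted P = 0.11). *Pals1*, which binds Crumbs proteins inside the cell, had 62.0, 60.3, 96.7 and 63.6 CPM in Control 1, Control 2, Eya1cKO 1 and Eya1cKO 2.

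The Par complex joins Par3, Par6 and an atypical protein kinase C. *Prkci*, which encodes that kinase, had 123 and 124 CPM in Control and 166 and 140.0 CPM in Eya1cKO (log2 fold change 0.31, SE 0.12, edgeR-adjusted P = 0.13). *Pard6b* had 35.2 and 43.4 CPM in Control and 48.7 and 54.0 CPM in Eya1cKO (edgeR-adjusted P = 0.24). For both genes the Eya1cKO libraries lay above the Controls. *Pard3*, which marks the site of the junction, had 159.7, 157, 172 and 128 CPM in the order above, with overlap. *Llgl2*, a basolateral counterpart of the Par complex, had 39.9, 42.8, 40.1 and 44.9 CPM and overlapped as well (log2 fold change 0.03, SE 0.18).

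Neither epithelial transcription factor passed in edgeR or DESeq2, and the unadjusted P was under 0.05 for 1. *Elf3*, an ETS factor of epithelia, had 3.46 and 5.26 CPM in Control and 10.1 and 10.3 CPM in Eya1cKO. The Eya1cKO libraries of *Elf3* were both above the Controls (log2 fold change 1.22, SE 0.48, edgeR-adjusted P = 0.15). *Grhl2*, a Grainyhead factor that acts on *Cdh1* and claudin genes, was at a mean of 7.18 CPM in Control and 4.49 CPM in Eya1cKO (edgeR-adjusted P = 0.43), and Eya1cKO 2 was close to the Controls.

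**Figure D5:**
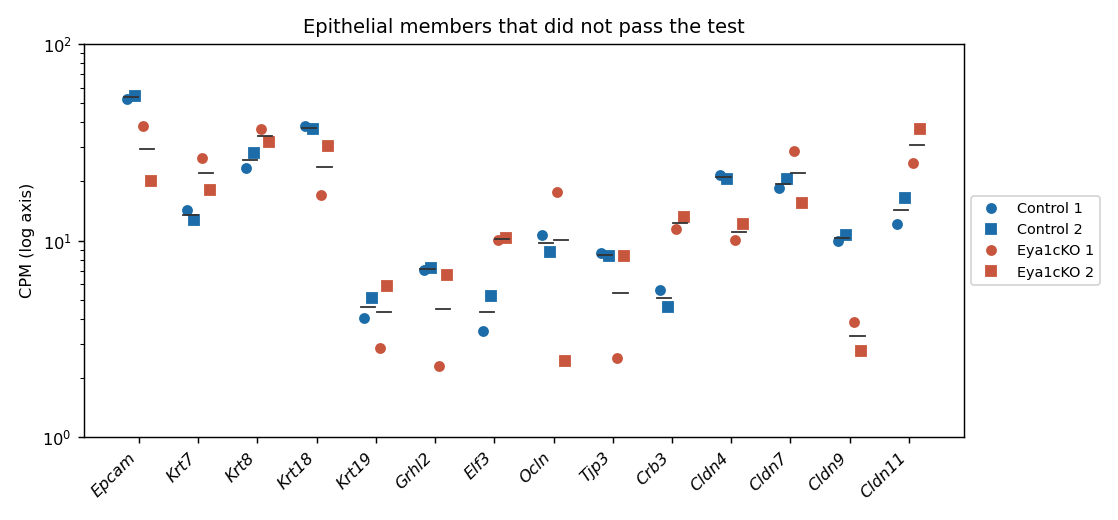
CPM on a log axis in each library for 14 epithelial genes that did not pass the test, with a line at each genotype's mean. The Eya1cKO libraries of *Ocln*, *Grhl2*, *Tjp3* and *Krt18* lie far from each other, while those of *Crb3*, *Elf3*, *Cldn4* and *Cldn9* lie together and apart from Control.

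The 6 mesenchymal genes all had higher means in Eya1cKO, and *Vim* and *Zeb2* passed the test, 2 of 6. Both are among the genes that the study itself names from these libraries, so their direction is not independent evidence. The summed level of the 6 was 954 and 1001 CPM in Control and 1670 and 1693 CPM in Eya1cKO. *Vim* encodes vimentin, the intermediate filament protein of mesenchymal cells, and lies at chr2:13573927-13582826. It was at 549 and 599 CPM in Control and at 1001 and 1112 CPM in Eya1cKO. The rise was 1.84-fold and far larger than the spread within a genotype (means 574 ± 35.4 and 1057 ± 78.8 CPM, log2 fold change 0.88, SE 0.08, edgeR-adjusted P = 0.0016). Per kb of exon, the sum of *Krt8* and *Krt18* was 0.3327 and 0.3152 of the level of *Vim* in Control and 0.146 and 0.159 of it in Eya1cKO.

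*Zeb2*, a zinc-finger repressor of epithelial genes at chr2:44983632-45117395, had 199.9 and 202 CPM in Control and 455 and 362 CPM in Eya1cKO. Its Control libraries were almost equal and its Eya1cKO libraries were both far above them, by 2.04-fold (means 201 ± 1.14 and 409 ± 65.7 CPM, log2 fold change 1.03, SE 0.12, edgeR-adjusted P = 0.0036). Its paralogue *Zeb1*, at 94.9, 100.5, 95.8 and 108 CPM in Control 1, Control 2, Eya1cKO 1 and Eya1cKO 2, overlapped between genotypes (log2 fold change 0.05, SE 0.12). *Snai1*, a repressor of *Cdh1*, had 15.1 and 14.4 CPM in Control and 25.2 and 20.2 CPM in Eya1cKO, apart without passing (edgeR-adjusted P = 0.18). *Snai2*, a relative of *Snai1*, had 59.1, 54.8, 68.2 and 46.3 CPM and *Twist1*, a basic helix-loop-helix factor of mesenchyme, had 35.3, 30.6, 24.6 and 44.1 CPM in the order above. In both, 1 Eya1cKO library was above and the other below the Controls.

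Markers of several cell types rose along with *Vim* and *Zeb2*. Renal stroma markers rose in 5 of 7, from 1681 to 1688 CPM summed in Control to 3500 to 3508 CPM in Eya1cKO. Adrenal cortex markers rose in 6 of 6, from 11.2 to 15.6 CPM to 670.2 to 698 CPM, and sympathoadrenal markers in 6 of 6, from 3.24 to 3.37 CPM to 345 to 391 CPM. Of the Schwann and glial list, *Sox10* alone rose of 3 tested, and none of these lists had a gene at the limit of detection in all libraries. Nephron progenitor markers fell in 6 of 6, from 557 to 592 CPM to 39.4 to 68.6 CPM. These 6 and their sum include *Eya1*, the gene deleted in Eya1cKO. Early nephron epithelium markers fell in 4 of 7, from 878 to 890 CPM to 490.1 to 587 CPM. Both lists fell along with *Cdh2* and *Cdh11*. No mesothelial marker of 3 tested passed in edgeR or DESeq2, 0 had an unadjusted P under 0.05, and the sum of all 5 genes of the list was 4.27 CPM in both Control libraries and 6.78 to 14.9 CPM in Eya1cKO. Blood markers did not pass either (0 of 3 tested, also at an unadjusted P under 0.05 and in DESeq2), with sums over all 6 genes of the list of 57.1 to 60.9 CPM in Control and 60.7 to 71.3 CPM in Eya1cKO and with *Hba-a1* and *Hbb-bt* at the limit of detection throughout. The part of these cell types in the values of the 45 genes was not tested.

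Among 73 tested genes of a wider list of junction, polarity, epithelial and mesenchymal genes, 6 were lower and 3 higher (12.3%), 24 had an unadjusted P under 0.05, and DESeq2's Wald test gave 9 lower and 6 higher. The share over all genes tested was 9.42% past the threshold and 28.9% at an unadjusted P under 0.05. *Cdh3*, or P-cadherin, fell from 71.8 and 79.3 CPM to 31.4 and 41.2 CPM (log2 fold change -1.08, SE 0.18, edgeR-adjusted P = 0.016). *Afdn*, the afadin that links nectins to actin, fell by less (log2 fold change -0.39, SE 0.08, edgeR-adjusted P = 0.034).

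Of the polarity genes outside the 45, 3 were lower. *Pard6g*, a relative of *Pard6b*, fell from 59.1 and 64.8 CPM to 30.4 and 37.7 CPM (log2 fold change -0.88, SE 0.19, edgeR-adjusted P = 0.031). *Llgl1* and *Scrib* belong to the basolateral Scribble group, and their log2 fold changes were -0.44 (SE 0.10, edgeR-adjusted P = 0.040) and -0.60 (SE 0.15, edgeR-adjusted P = 0.049). Both calls were lost with scaling by library totals alone, without the low-count filter, with legacy quasi-likelihood and with the Control counts thinned, and that of *Scrib* also with DESeq2's size factors and with robust quasi-likelihood. *Dlg2*, a membrane-associated scaffold also known from neurons, rose from 3.38 and 3.98 CPM to 23.9 and 15.3 CPM (edgeR-adjusted P = 0.020). *Cgnl1*, or paracingulin, rose from 185 and 198 CPM to 286 and 318 CPM (edgeR-adjusted P = 0.0083), and the smooth muscle actin gene *Acta2* rose from 16.8 and 19.9 CPM to 38.9 and 39.3 CPM (edgeR-adjusted P = 0.030). The calls of *Afdn*, *Pard6g* and *Acta2* were lost without the low-count filter and with legacy quasi-likelihood.

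No desmosome gene of 8 tested passed (2 at an unadjusted P under 0.05 and 0 in DESeq2). Of 15 other epithelial genes tested, including *Grhl1*, *Esrp1* and *Prom1*, 0 passed in edgeR, 4 had an unadjusted P under 0.05, 1 was lower in DESeq2, and 13 had a negative sign, with a median log2 fold change of -0.46. The basal keratin genes *Krt5* and *Krt14* had no read in any library.

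Among the 44 genes tested, Eya1cKO libraries differed from each other more than Control libraries did. The median ratio between the libraries of a genotype was 1.09 in Control and 1.29 in Eya1cKO. Over all genes tested with a read in either library of the genotype it was 1.14 and 1.5. Such genes with no read in the other library were counted as over 2-fold. Ratios over 2-fold occurred for 0 of the 44 in Control, beside 12.6% of all genes, and for 7 (15.9%) in Eya1cKO, beside 35.3% of all genes. The 7 were *Krt19*, *Cldn10*, *Cldn15*, *Cldn19*, *Ocln*, *Tjp3* and *Grhl2*. Exons of 11 of the 45 genes share bases with a gene on the opposite strand, at most 7.31% of exonic length (*Elf3*), and among the genes that passed these are *Zeb2*, *Crb2* and *Cldn3*. The strand setting of the counting was not stated, so reads there cannot be assigned with certainty.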

How the data were processed

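RNA of sorted tdTomato+ cells was measured in 2 Control and 2 Eya1cKO libraries. As the study's methods state, mRNA was purified on beads and random-primed stranded SMARTer libraries were read from one end on a NextSeq instrument. The authors mapped reads to mm10 with HISAT2 and counted them on Ensembl v90 genes with HTSeq, and the deposited values are raw read counts per gene. The strand setting was not stated. They tested expression with DESeq2.

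Counts were analysed here in R 4.3.3 with edgeR 4.0.16 (filterByExpr with a minimum count of 10, TMM, estimateDisp, glmQLFit with legacy = FALSE, glmQLFTest on genotype) over all genes, with Benjamini-Hochberg adjustment and a threshold of 0.05. The SE was derived as log2 fold change divided by root F, without sign. The test was checked on simulated counts. HTSeq summary rows that name no gene, 31.8% to 46.1% of the records, were left out. Library depth ran from 17457452 to 37999342 reads on genes, so counting error at a given CPM is larger in Eya1cKO. Symbols, coordinates and exonic lengths came from GENCODE M21 on GRCm38, which is the build of mm10 but a later release than the one counted on. Of 52636 identifiers, 52403 had a symbol. Of the wider list 84 of 85 genes were matched, and of the cell type markers 78 of 78. Promoters came from the RefSeq table for GRCm38.p6.

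The 45 genes and the gene lists were chosen with earlier results of these data known. Every gene of the 45 was reported, with values per library where its difference passed, its mean was over 10 CPM in a group, or its absolute log2 fold change was over 1, and otherwise by range. Of the wider list, genes that passed were named, up to 6 of smallest P in each direction, except that some results are not reported here. Samples were grouped by the genotype in their labels. Alternatives for the scaling were size factors from DESeq2 or library totals alone. Those for the filter were none, or 10 counts required in each library. Those for the model were DESeq2 1.42.0 (Wald test), a robust fit, the legacy method, and replicate number as a block. Each library was also omitted once. Thinning the Control counts to the depth of Eya1cKO and a fit with no prior dispersion estimate were added after seeing the data.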

Additional observations from a re-analysis of the deposited data

How the results depend on the processing

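Where a library was left out, its genotype had 1 library, assumed to vary like those of the other genotype. The lower genes among the 45 (3) then numbered from 0 to 14 and the higher ones (7) from 0 to 18, the wider list's lower (6) from 0 to 15 and higher (3) from 0 to 17, and over all genes lower (836) from 7 to 3489 and higher (958) from 15 to 4445. Each count was lowest without a Control library, at 0 for the 45 genes without Control 1 or Control 2. Their median log2 fold change, 0.06, ran from 0.067 to 0.24. The log2 fold change of *Ocln*, 0.18, was -1.99 without Eya1cKO 1 and 0.85 without Eya1cKO 2, and the cause was not tested. Without the low-count filter, 4 of the 45 genes were higher, 2 of the wider list were lower, and 520 of all genes were lower and 554 higher. Legacy quasi-likelihood left 2 of the wider list lower, and 515 of all genes lower and 581 higher. DESeq2's Wald test called 6 of the wider list higher, and 1294 of all genes lower and 1808 higher. No other setting without the block moved these counts by over 1.5 times. The calls of *Cdh2*, *Cldn5*, *Vim* and *Zeb2* were lost only without a Control library. The calls of *Cldn3* and *Cldn6* were also lost with legacy quasi-likelihood, without the filter and with thinned Controls, that of *Crb2* without the filter and with thinned Controls, and that of *Cdh16* without the filter.

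Replicate numbers are shared between the genotypes in the labels, but same-numbered libraries deviated together with a correlation of only 0.011, so the numbers were not taken as pairs. With the replicate block, 1 of the 45 genes was lower and 3 were higher, 1 gene of the wider list was lower and 1 higher, and 265 of all genes were lower and 358 higher. Among the 45, the calls lost with the block were those of *Cdh11*, *Cdh16*, *Cldn2*, *Cldn3*, *Cldn6* and *Crb2*.

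*Cldn16*, with 9, 10, 0 and 0 reads, did not pass the low-count filter and could not be tested. The standard error reached 0.96 for *Cldn19*, which had 3 reads in Eya1cKO 1 and 86 in the shallower Eya1cKO 2.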
